A study of Mus musculus with 36 samples.

Results

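The 45 genes described here encode the proteins of scar and scaffold in the kidney: collagens, matrix glycoproteins, small proteoglycans, matrix proteases and their inhibitors, collagen cross-linking enzymes, TGF-beta ligands, and genes that mark vessel wall and interstitial cells. They were taken by symbol from a fixed list, chosen with earlier results of these data known, and all 45 were found among the 53715 genes of the count files. Messenger RNA of 36 whole kidney samples had been sequenced, with 9 numbered samples to a group. STZ-cKOt and PBS-cKOt mice were Bmal1 lox/lox/Pax8-rtTA/LC1 animals, in which the Pax8 promoter directs doxycycline-dependent Cre activity to the renal tubule, so that cells outside the tubule keep the gene. STZ-control and PBS-control mice were Bmal1 lox/lox littermates. All groups drank doxycycline at 2 mg/ml for 2 weeks from an age of 8 weeks. STZ groups then received streptozotocin, a toxin of insulin-producing cells that causes diabetes, at 50 mg/kg on 5 consecutive days, and PBS groups received the vehicle. The kidneys were collected 8 weeks after injections ended, at zeitgeber time 9, late in the light phase. Sex and strain are not in the labels used here.

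Fibrosis is the build-up of extracellular matrix, made mostly by interstitial fibroblasts, pericytes and mesangial cells, and TGF-beta is its best known inducer. Fibrillar collagens and fibronectin form the interstitial network, which lysyl oxidases cross-link and matrix metalloproteinases cut. Type IV collagen, in contrast, forms the sheet of the basement membrane under tubule, glomerular and vessel cells, and its alpha3, alpha4 and alpha5 chains assemble into a network found in the mature glomerulus and in part of the tubule. Diabetes is known to thicken these membranes, and BMAL1 is the core activator of the circadian clock.

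Fibronectin, fibrillar collagens and other interstitial matrix genes were higher in STZ-cKOt than in PBS-cKOt kidneys, and fibronectin and most fibrillar collagens were lower in PBS-cKOt than in PBS-control kidneys. Col4a3 and Col4a4 were the main exception: they were higher in cKOt than in control kidneys with and without STZ, and neither passed the test with STZ. Values are counts per M assigned reads (CPM), and 3 values given for a group are its lowest, median and highest library of 9. Differences are log2 fold changes ± SE from edgeR's quasi-likelihood test, fitted to all 15637 genes that passed a filter on low counts, and a gene is called changed at an adjusted p under 0.05. Of the members 44 passed the filter. Timp1, an inhibitor of matrix metalloproteinases often induced in fibrosis, did not: it had 0.0491, 0.277 and 0.565 CPM in STZ-cKOt, 0.0492, 0.274 and 0.473 in PBS-cKOt, 0.133, 0.341 and 1.18 in STZ-control, and 0.00, 0.207 and 0.474 in PBS-control.

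Libraries held 16.9 to 22.3 M assigned reads (median 20.1 M). The targeted gene, Arntl (Bmal1), does not show its deletion in a count over the whole gene: it had 13.0 to 17.1 CPM in STZ-cKOt, 12.9 to 17.4 in PBS-cKOt, 1.18 to 13.4 in STZ-control and 1.09 to 2.40 in PBS-control. The library labelled STZ-control 2 had the 13.4 CPM, which for this gene goes against its label, since the next highest STZ-control library had 2.64. Its Col4a3 and Col4a4, at 358 and 258 CPM, lay below every STZ-cKOt library (lowest 479 and 304 CPM). Both values were also the highest among STZ-control libraries. The reason for its Arntl count was not tested. STZ-control 7 and 8 and PBS-cKOt 1 and 3 stood apart from the rest and had the lowest counts of long relative to short genes. All libraries were kept, and calls lost without these 4 together or without STZ-control 2 are named below. Markers of proximal tubule, the main cell mass of the kidney, summed to 7568 to 12424 CPM, and markers of the adrenal gland to at most 3.12.

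Of the 44 tested members, 8 changed with genotype in STZ mice (18.2%, against 19.6% of all tested genes): 4 rose, against 9.52% of all genes, and 4 fell, against 10.1%. In PBS mice 19 changed with genotype (43.2%, against 23.4%): 3 rose in cKOt, against 10.9% of all genes, and 16 fell, against 12.5%. STZ changed 22 members in cKOt mice (50%, against 11.6%), with 21 higher, against 6% of all genes, and 1 lower, against 5.63%. In control mice STZ changed 11 (25%, against 12.3%), with 10 higher, against 6.34%, and 1 lower, against 5.93%. The median log2 difference of the members was −0.17 for genotype in STZ mice, −0.28 for genotype in PBS mice, 0.34 for STZ in cKOt mice and 0.26 for STZ in control mice, where the median of all tested genes lay between −0.01 and 0.00. Leaving out PBS-control 9 alone or PBS-cKOt 6 alone left 10 members lower in cKOt in PBS mice. Without the 4 libraries that stood apart, 10 members were lower in cKOt in PBS mice and 17 changed with STZ in cKOt mice. The count for STZ in control mice was the least settled. It was 6 without STZ-control 2, 4 without PBS-control 1, 5 without PBS-control 4, and 7 without PBS-control 3 or STZ-control 8. The count for genotype in STZ mice was 5 without STZ-control 6 or 8.

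**Figure D1:**
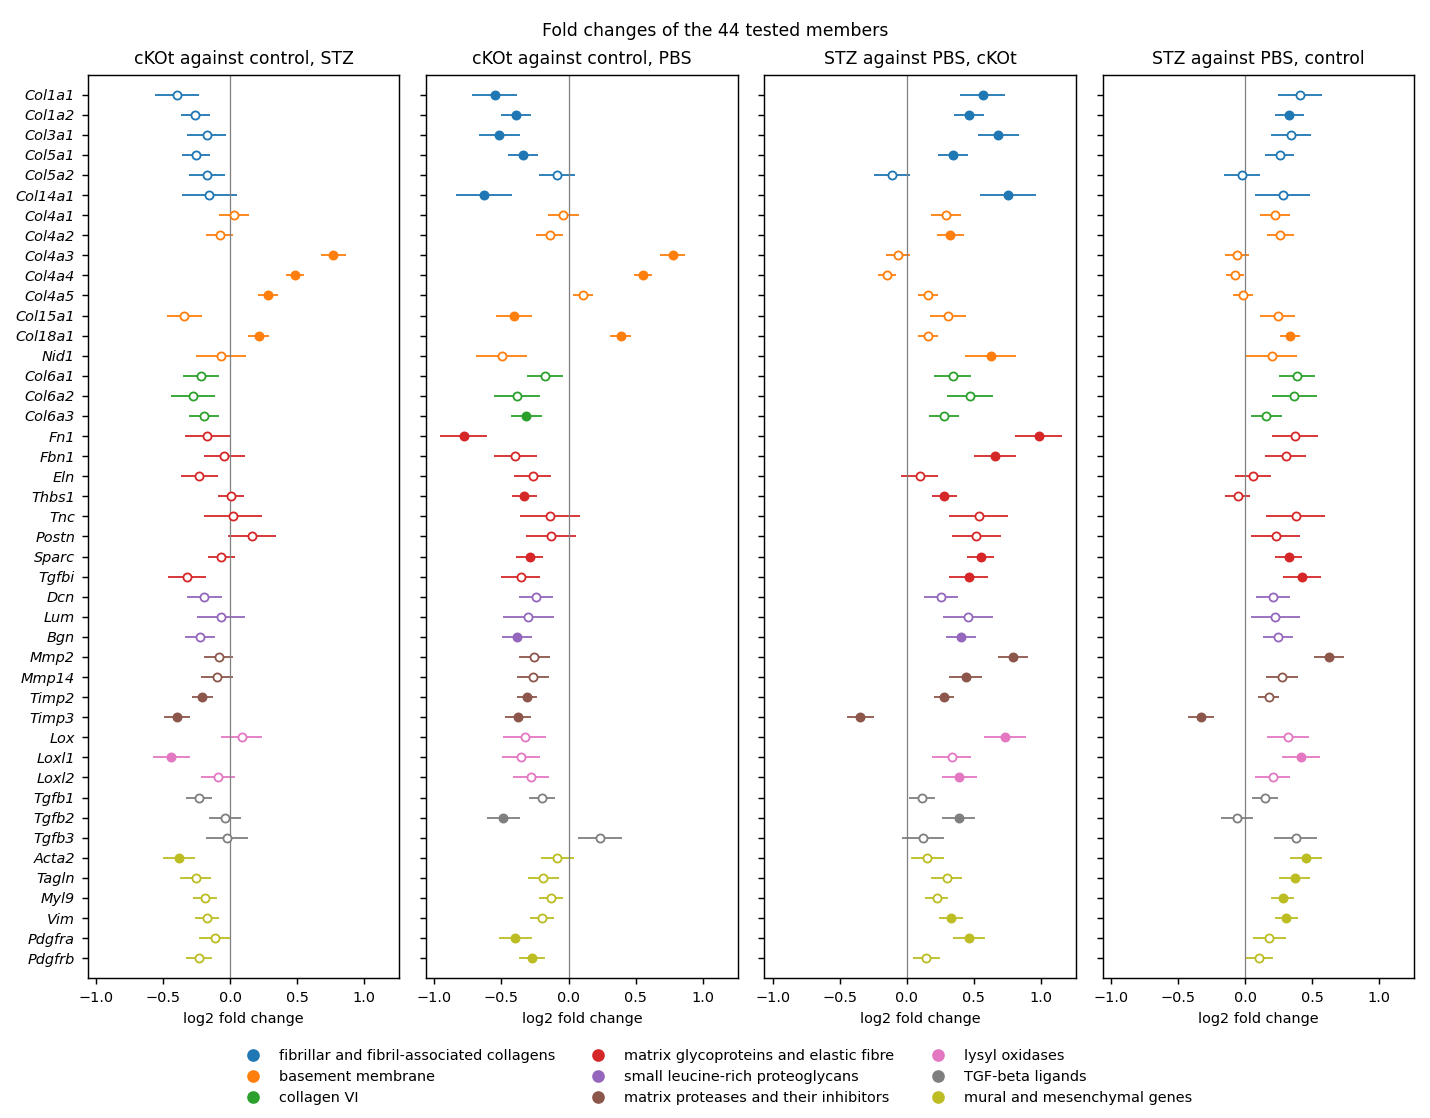
Log2 fold change of each of the 44 tested members (points, with SE bars) in the 4 pairwise comparisons, coloured by role, with filled points at an adjusted p under 0.05 and open points otherwise. For genotype, 39 of 44 points lie below 0 in PBS mice (against 49.6% of all tested genes) and 35 in STZ mice (against 51.8%). For STZ, 4 of 44 do in cKOt mice (against 50.4%) and 7 in control mice (against 48.9%).

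The response to STZ was not shown to differ between genotypes for any member. Of 44, 0 passed the test of the difference by edgeR, by DESeq2 or by limma, and 3 had an unadjusted p under 0.05 by edgeR, with 7 of all genes (0.0448%) passing. These 3 were Fn1 (0.61 ± 0.24, adjusted p = 0.364), Tgfb2 (0.45 ± 0.17, adjusted p = 0.364) and Thbs1 (0.34 ± 0.13, adjusted p = 0.366), all with a more positive STZ difference in cKOt mice.

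Group means showed the same order for most members. The lowest of the 4 means was that of PBS-cKOt for 37 of 44 members (84.1%), against 23.4% of all tested genes, and the highest was that of STZ-control for 32 (72.7%), against 25.1%. This order enters 2 comparisons at once, because genotype in PBS mice and STZ in cKOt mice use the same 9 PBS-cKOt libraries. Their calls are therefore not independent of each other. The members were chosen with earlier results of these data known, so the shares above only describe them. In whole kidney, fewer cells of a type and less RNA per cell cannot be told apart.

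The members spanned about 3 orders of magnitude in level per length, given as reads per kb of exon per M (RPKM). Timp3, which encodes a matrix-bound inhibitor of metalloproteinases, was the highest, with a mean of 347 RPKM in PBS-control kidneys. Next came Col4a3 with 31.5, the smooth muscle myosin light chain gene Myl9 with 31.2 and Sparc with 28.8. The interstitial collagen genes were much lower, with 3.60 RPKM for Col1a2, 2.85 for Col3a1 and 1.94 for Col1a1. The injury-linked matrix genes Tnc and Postn stood at 1.23 and 0.333.

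**Figure D2:**
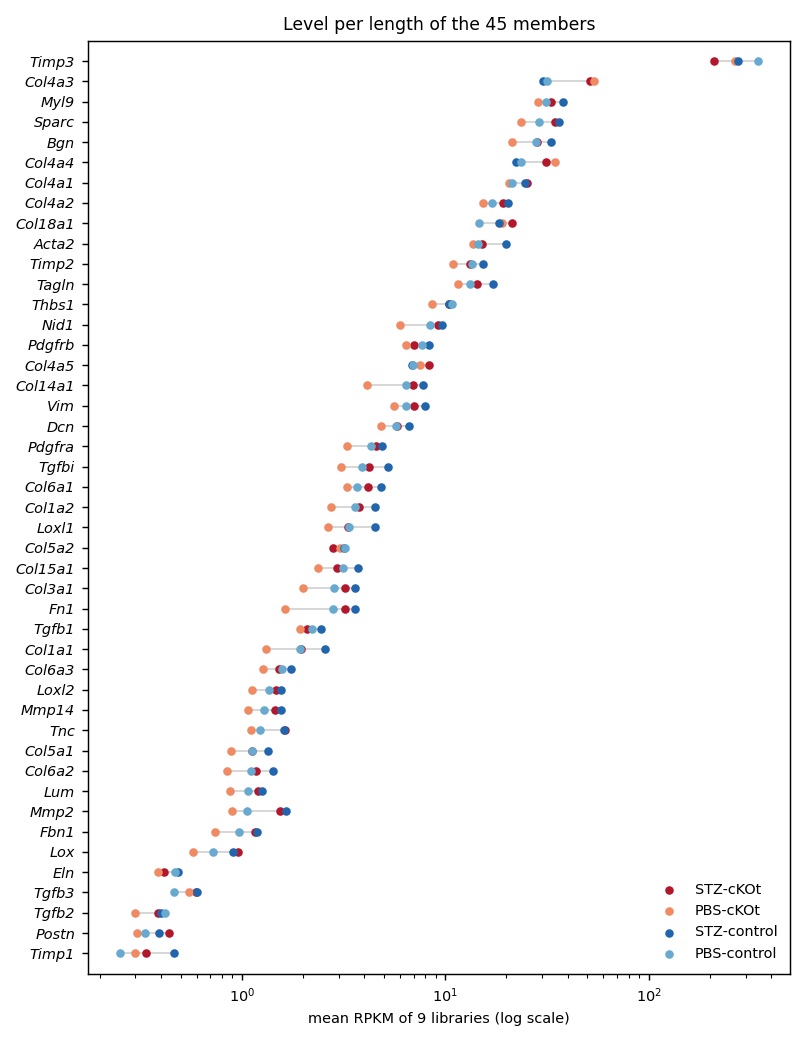
Mean RPKM of each of the 45 members in the 4 groups of 9 libraries, on a log scale, ordered by the PBS-control mean. Timp3 lies far above the rest, and the PBS-cKOt point is the leftmost of its row for most members.

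Among the basement membrane genes, 3 were higher in cKOt kidneys with and without STZ. Col4a3, the alpha3 chain of type IV collagen (ENSMUSG00000079465, chromosome 1, 82586921 to 82722059, GRCm38), had 479, 505 and 551 CPM in STZ-cKOt, 297, 558 and 623 in PBS-cKOt, 265, 292 and 358 in STZ-control, and 269, 301 and 386 in PBS-control. All STZ-cKOt libraries lay above all STZ-control libraries, and 8 of 9 PBS-cKOt libraries above all PBS-control libraries. The remaining one, PBS-cKOt 1, lay within the control range. The difference was 0.77 ± 0.09 in STZ mice (adjusted p = 2.63e-08) and 0.78 ± 0.09 in PBS mice (adjusted p = 1.92e-08), or 1.71-fold. Col4a3 did not pass for STZ in cKOt mice (−0.07 ± 0.09, adjusted p = 0.714), where all 9 STZ-cKOt libraries lay below the PBS-cKOt median but within its range, or in control mice (−0.06 ± 0.09, adjusted p = 0.706).

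Col4a4, the alpha4 chain (ENSMUSG00000067158, chromosome 1, 82448423 to 82586849), followed the same order. It had 304, 342 and 354 CPM in STZ-cKOt, 248, 377 and 410.4 in PBS-cKOt, 212, 233 and 258 in STZ-control, and 225, 241 and 288 in PBS-control. STZ-cKOt and STZ-control libraries did not overlap, and in PBS mice PBS-cKOt 1 alone overlapped with controls. Its difference was 0.48 ± 0.07 (adjusted p = 7e-07) in STZ mice and 0.55 ± 0.07 (adjusted p = 3.97e-08) in PBS mice. For STZ it was −0.15 ± 0.07 (adjusted p = 0.162) in cKOt mice and −0.08 ± 0.07 (adjusted p = 0.487) in control mice. The alpha5 chain gene Col4a5, which is on the X chromosome and whose product joins alpha3 and alpha4 in one network, changed in STZ mice only at the threshold used: 0.28 ± 0.08 (adjusted p = 0.00588), against 0.11 ± 0.08 (adjusted p = 0.331) in PBS mice, and the 2 differences were not shown to differ (adjusted p = 0.455). It had 46.6, 56.7 and 64.2 CPM in STZ-cKOt, 41, 51.1 and 61.5 in PBS-cKOt, 39.1, 46.5 and 55.9 in STZ-control, and 37.1, 46.2 and 54.6 in PBS-control, so these ranges overlapped throughout. The Col4a3, Col4a4 and STZ-mouse Col4a5 calls held in every setting tried and without any single library.

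**Figure D3:**
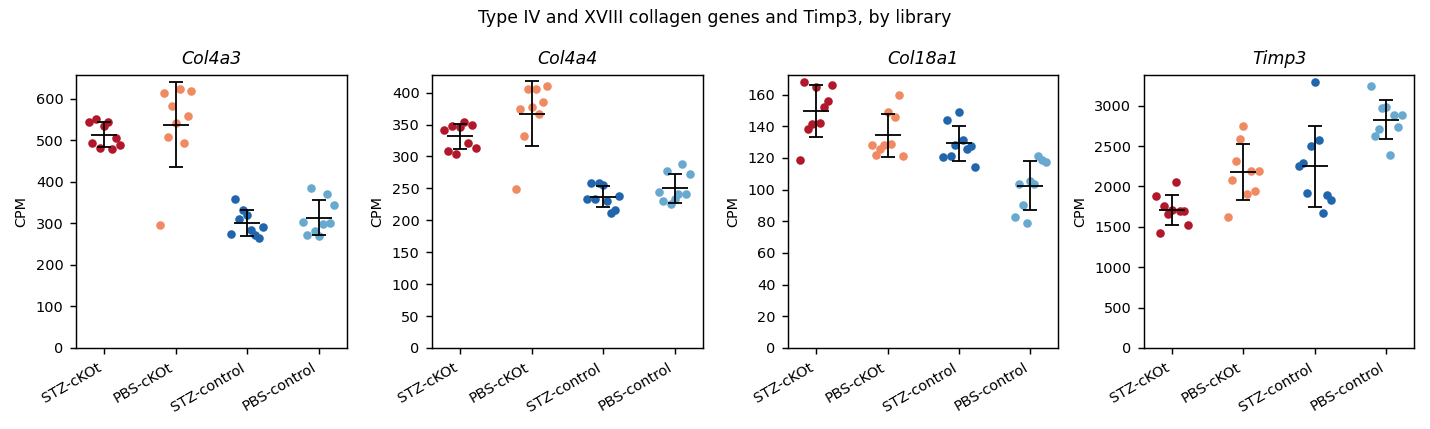
CPM of Col4a3, Col4a4, Col18a1 and Timp3 in each of the 36 libraries (points), with the group mean and SD (bars, n = 9). Col4a3 and Col4a4 are higher in both cKOt groups apart from 1 PBS-cKOt library, and Timp3 is highest in PBS-control and lowest in STZ-cKOt.

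Col4a3 and Col4a4 are divergent neighbours, as are Col4a2 and Col4a1, and promoters of both pairs are shown because only the first pair changed with genotype. Annotated starts of Col4a3 and Col4a4 lie 72 bases apart, and those of Col4a2 and Col4a1 lie 21 bases apart within an overlap of the 2 genes. The windows are RefSeq promoters on GRCm38.p6, 250 bases before to 50 after the start, 5′ to 3′ on the gene's strand. Col4a4 lies at chr1:82586800-82587099 (minus strand), and its window includes the annotated start of Col4a3, which the table does not list. Col4a1 lies at chr8:11312777-11313076 (minus strand) and Col4a2 at chr8:11312555-11312854 (plus strand). Capitals mark GC boxes (GGGCGG) and the SMAD element (CAGAC), on either strand.
Col4a4: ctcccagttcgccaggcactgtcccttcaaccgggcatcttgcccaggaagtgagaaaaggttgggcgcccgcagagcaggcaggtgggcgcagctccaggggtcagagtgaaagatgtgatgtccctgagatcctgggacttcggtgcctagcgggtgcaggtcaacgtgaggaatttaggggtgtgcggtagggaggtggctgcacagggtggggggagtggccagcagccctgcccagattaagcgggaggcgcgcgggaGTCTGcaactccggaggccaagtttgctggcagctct
Col4a1: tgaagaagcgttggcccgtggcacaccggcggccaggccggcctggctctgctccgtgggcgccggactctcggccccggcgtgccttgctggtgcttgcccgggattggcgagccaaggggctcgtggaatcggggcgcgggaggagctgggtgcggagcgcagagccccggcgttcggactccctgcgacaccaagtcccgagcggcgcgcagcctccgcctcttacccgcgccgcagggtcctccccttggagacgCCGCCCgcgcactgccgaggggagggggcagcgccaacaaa
Col4a2: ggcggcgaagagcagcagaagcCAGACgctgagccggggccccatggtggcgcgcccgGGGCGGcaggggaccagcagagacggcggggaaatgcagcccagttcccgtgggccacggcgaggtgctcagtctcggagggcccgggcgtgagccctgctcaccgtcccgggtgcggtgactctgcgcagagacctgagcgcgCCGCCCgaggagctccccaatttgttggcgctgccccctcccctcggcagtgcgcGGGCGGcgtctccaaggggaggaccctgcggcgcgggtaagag
The Col4a4 window held 0 GC boxes and 1 SMAD element, the Col4a1 window 1 and 0, and the Col4a2 window 3 and 1. The Col4a1 and Col4a2 windows overlap, and the GC box of Col4a1 is the same site as the last GC box of Col4a2. The canonical E-box bound by BMAL1 and CLOCK (CACGTG) was in none of the 3. GC content was 63.3% in the Col4a4 window, 74.0% in that of Col4a1 and 73.7% in that of Col4a2.

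Col4a1 and Col4a2, the chains of the ubiquitous type IV network, were not shown to differ with genotype. Col4a1 passed in no comparison. Its group medians were 182 CPM in STZ-cKOt, 158 in PBS-cKOt, 188 in STZ-control and 164 in PBS-control. Col4a2 rose with STZ in cKOt mice by 0.32 ± 0.10 (adjusted p = 0.0303), a call lost without any one of 6 libraries (highest adjusted p = 0.0827) and without the 4 that stood apart (adjusted p = 0.0907). The 2 genes overlap at their starts on opposite strands, and reads there cannot be told apart unless strand was used in counting.

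Col18a1, whose product carries endostatin at its end (ENSMUSG00000001435, chromosome 10, 77052178 to 77166548), had 118, 152 and 168 CPM in STZ-cKOt, 121, 128 and 159 in PBS-cKOt, 114, 128 and 149 in STZ-control, and 78.9, 104 and 121 in PBS-control. No PBS-control library reached the lowest PBS-cKOt library, but the 2 groups nearly touched (121.45 against 121.48 CPM). The difference with genotype in PBS mice was 0.39 ± 0.08 (adjusted p = 0.000192). In STZ mice it was 0.21 ± 0.08 (adjusted p = 0.0455), lost without any one of 12 libraries and without the 4 that stood apart (adjusted p = 0.0766). STZ raised Col18a1 in control mice by 0.33 ± 0.08 (adjusted p = 0.00343), which held in every setting tried. The gene overlaps Slc19a1 on the other strand, at a mean of 86.9 CPM, so its reads may be mixed.

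Nid1 and Col15a1 each passed in a single comparison. Nid1 encodes nidogen, which links laminin to type IV collagen, and had 36.3, 65.4 and 87.9 CPM in STZ-cKOt, 22.3, 36.6 and 58.9 in PBS-cKOt, 33.1, 68 and 105 in STZ-control, and 29.9, 62.2 and 69.9 in PBS-control. It rose with STZ in cKOt mice by 0.63 ± 0.19 (adjusted p = 0.0256), with 7 of 9 STZ-cKOt libraries above all PBS-cKOt libraries. Col15a1, of vessel and muscle basement membranes, was lower in cKOt in PBS mice, at −0.41 ± 0.14 (adjusted p = 0.0263). Both calls were lost without the 4 libraries (adjusted p = 0.0659 and 0.0695), that of Nid1 also without PBS-cKOt 1, 3 or 6 or STZ-cKOt 4 or 5 (up to 0.0605), and that of Col15a1 without PBS-control 8 or 9 or PBS-cKOt 3 or 6 (up to 0.0657).

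The wider basement membrane list, of 17 tested laminin and related genes, had 5 higher and 1 lower with genotype in STZ mice (35.3%, against 19.6% of all tested genes), and 3 higher and 4 lower in PBS mice (41.2%, against 23.4%). Its medians were −0.01 and 0.03. Npnt, which encodes the integrin ligand nephronectin, averaged 268 ± 24.4 CPM in STZ-cKOt against 117 ± 10.9 in STZ-control, a rise of 1.19 ± 0.06 (adjusted p = 1.83e-17), and rose by 1.38 ± 0.06 in PBS mice. Nid2, the second nidogen, rose by 0.72 ± 0.06 (adjusted p = 4.69e-12) in STZ mice and 0.92 ± 0.06 in PBS mice. Lama3 fell in PBS mice (−0.60 ± 0.13, adjusted p = 0.000445). With STZ, 0 of 17 changed in cKOt mice (3 at an unadjusted p under 0.05), against 11.6% of all genes, and 3 rose in control mice (17.6%, against 12.3%).

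Most fibrillar collagen genes were higher in STZ-cKOt than in PBS-cKOt kidneys, and lower in PBS-cKOt than in PBS-control kidneys. Of the 6 in this role, 5 were lower with genotype in PBS mice and 5 rose with STZ in cKOt mice, in comparisons that share the PBS-cKOt libraries. That is 83.3% called in each, against 23.4% and 11.6% of all genes. The role's median was −0.45 in the first comparison and 0.51 in the second. Col3a1, type III collagen (ENSMUSG00000026043, chromosome 1, 45311538 to 45349706), had 24.1, 31 and 40.2 CPM in STZ-cKOt, 14.9, 19.8 and 25.1 in PBS-cKOt, 22, 35.8 and 54 in STZ-control, and 16.9, 29.3 and 37.3 in PBS-control. Of 9 STZ-cKOt libraries 8 lay above all PBS-cKOt libraries, and all 9 PBS-cKOt libraries lay below the PBS-control median. Its differences were 0.68 ± 0.15 (adjusted p = 0.00201) for STZ in cKOt mice and −0.51 ± 0.15 (adjusted p = 0.0109) for genotype in PBS mice.

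Col1a2, the second chain of type I collagen (ENSMUSG00000029661, chromosome 6, 4504814 to 4541544), had 40.8, 46.1 and 55.2 CPM in STZ-cKOt, 26, 36 and 43 in PBS-cKOt, 44, 53.3 and 70.7 in STZ-control, and 27.9, 47.3 and 55.9 in PBS-control. Its PBS-cKOt median was the lowest of the 4 and its STZ-control median the highest. It rose with STZ in cKOt mice by 0.46 ± 0.11 (adjusted p = 0.00436) and was lower with genotype in PBS mice, at −0.39 ± 0.11 (adjusted p = 0.0081). Its rise with STZ in control mice (0.33 ± 0.11, adjusted p = 0.0434) was lost without any one of 9 libraries, STZ-control 2 among them (adjusted p = 0.0819).

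Col1a1, the main chain of type I collagen, had 9.22, 13.2 and 18.2 CPM in STZ-cKOt, 7.19, 8.09 and 11.9 in PBS-cKOt, 11.1, 15.9 and 24.4 in STZ-control, and 7.23, 13.5 and 20.5 in PBS-control. It rose with STZ in cKOt mice (0.56 ± 0.17, adjusted p = 0.0219, and 0.0511 without STZ-cKOt 6) and was lower with genotype in PBS mice (−0.55 ± 0.17, adjusted p = 0.0146, and 0.0507 without PBS-control 9). Col14a1, a fibril-associated collagen of fibroblasts, rose with STZ in cKOt mice by 0.75 ± 0.21 (adjusted p = 0.0132). Its spread was wide, since PBS-cKOt libraries ran from 13.5 to 42.8 CPM and STZ-control libraries from 24.3 to 88.0. Its difference in PBS mice (−0.63 ± 0.21, adjusted p = 0.0241) was lost without PBS-control 2, PBS-cKOt 3 or PBS-cKOt 6 (up to 0.0552).

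Col5a1, which nucleates type I fibrils, differed by 0.34 ± 0.11 (adjusted p = 0.0341) for STZ in cKOt mice, lost without any one of 9 libraries, and by −0.34 ± 0.11 (adjusted p = 0.0213) for genotype in PBS mice, lost without PBS-control 9 or PBS-cKOt 6 (up to 0.0566). Without the 4 libraries that stood apart, the calls in PBS mice of Col1a1, Col5a1 and Col14a1 were lost (adjusted p = 0.0588, 0.0831 and 0.0647), as were the STZ calls in cKOt mice of Col1a1 and Col5a1 (0.0703 and 0.0967). Col5a2 passed in no comparison, with medians of 23.7 CPM in STZ-cKOt, 30.3 in PBS-cKOt, 30.6 in STZ-control and 27.8 in PBS-control. In STZ mice 0 of the 6 changed with genotype by edgeR, against 19.6% of all tested genes. Of the 6, 3 had an unadjusted p under 0.05 by edgeR, as did 4886 of 15637 tested genes. The summed fibroblast markers had medians of 49.5 CPM in STZ-cKOt, 33.2 in PBS-cKOt, 51.1 in STZ-control and 42.4 in PBS-control. Most of the sum was 1 gene, Cd34, at a mean of 38.9 of 49.4 CPM in STZ-cKOt and 25.5 of 34.6 in PBS-cKOt. In PBS-control Cd34 made up 31.5 of 41.5 CPM. Of the 7 markers only Cd34 was called for STZ in cKOt mice (14.3%, against 11.6% of all genes). The part of these markers in the result was not tested.

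**Figure D4:**
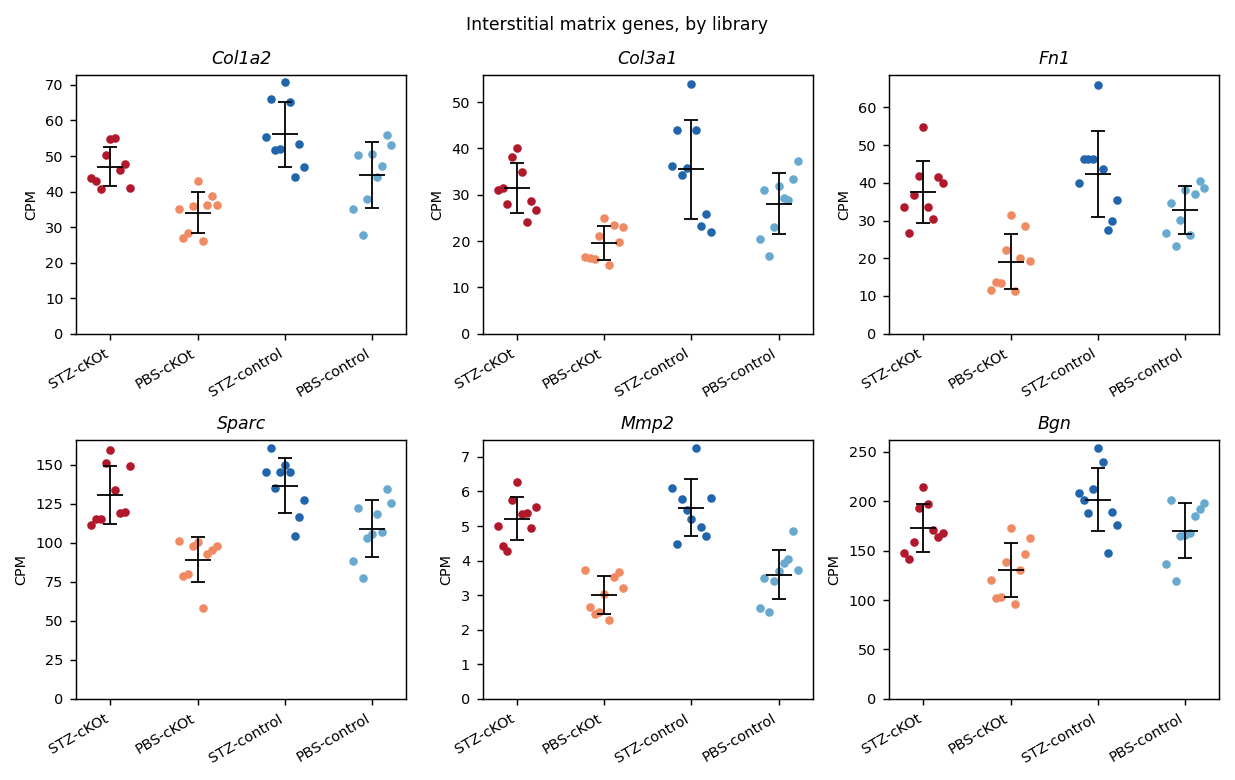
CPM of Col1a2, Col3a1, Fn1, Sparc, Mmp2 and Bgn in each of the 36 libraries (points), with the group mean and SD (bars, n = 9). PBS-cKOt has the lowest mean in all 6 panels, and STZ libraries of either genotype lie above their PBS counterparts on average.

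Of the 3 genes of collagen VI, a beaded filament network around cells, 1 passed in 1 comparison. Col6a3 was lower with genotype in PBS mice (−0.31 ± 0.11, adjusted p = 0.043), a call lost without any one of 12 libraries (up to 0.1) and without the 4 (0.129). Col6a1 and Col6a2 passed in no comparison, although all 3 genes had an unadjusted p under 0.05 for STZ in cKOt mice, with a median of 0.34. Their STZ differences in cKOt mice were 0.34 ± 0.14 (adjusted p = 0.0996) and 0.47 ± 0.17 (adjusted p = 0.0654), and those in control mice 0.38 ± 0.14 (adjusted p = 0.0562) and 0.37 ± 0.17 (adjusted p = 0.15).

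Among 12 tested collagen genes outside the members, 2 were higher and 2 lower with genotype in STZ mice (33.3%, against 19.6% of all genes), and 2 higher and 4 lower in PBS mice (50%, against 23.4%). Col6a6, a long collagen VI chain, averaged 21.6 ± 9.11 CPM in STZ-cKOt against 3.35 ± 1.18 in STZ-control (2.69 ± 0.23, adjusted p = 9.32e-12). In PBS mice it averaged 37.6 ± 7.13 CPM in PBS-cKOt against 4.18 ± 1.28 in PBS-control (3.17 ± 0.23, adjusted p = 5.76e-14), and within cKOt it fell with STZ by 0.80 (adjusted p = 0.00644). Col27a1, a fibrillar collagen of cartilage, was lower, at −1.12 ± 0.14 in STZ mice and −1.36 ± 0.14 in PBS mice. Col5a3 was lower, at −0.68 ± 0.16 and −0.77 ± 0.17, and Col8a1 higher by 0.79 ± 0.27 and 0.81 ± 0.26. With STZ, Col7a1, the anchoring fibril collagen, rose by 0.59 ± 0.15 in cKOt mice and 0.67 ± 0.14 in control mice.

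Fn1, fibronectin (ENSMUSG00000026193, chromosome 1, 71585520 to 71653200), showed the largest STZ difference of all members. It had 26.7, 36.8 and 54.9 CPM in STZ-cKOt, 11.4, 19.3 and 31.4 in PBS-cKOt, 27.4, 43.6 and 66 in STZ-control, and 23.2, 34.7 and 40.6 in PBS-control. Of 9 STZ-cKOt libraries 7 lay above all PBS-cKOt libraries, and 7 of 9 PBS-cKOt libraries lay below all PBS-control libraries. STZ-control and PBS-control overlapped. Fn1 rose with STZ in cKOt mice by 0.98 ± 0.17 (adjusted p = 0.000167), or 1.97-fold, and was 1.72-fold lower with genotype in PBS mice (−0.78 ± 0.17, adjusted p = 0.000837). For STZ in control mice it was 0.37 ± 0.17 (adjusted p = 0.156), and for genotype in STZ mice −0.17 ± 0.17 (adjusted p = 0.534).

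Sparc, a collagen-binding glycoprotein (ENSMUSG00000018593, chromosome 11, 55394500 to 55423183), had 112, 119.7 and 159.6 CPM in STZ-cKOt, 58.2, 95.7 and 101 in PBS-cKOt, 104, 145 and 161 in STZ-control, and 77.6, 107 and 134 in PBS-control. All STZ-cKOt libraries lay above all PBS-cKOt libraries, with a difference of 0.55 ± 0.10 (adjusted p = 0.000261). The STZ difference in control mice was 0.32 ± 0.10 (adjusted p = 0.0289), lost without PBS-control 1, 3 or 4 or STZ-control 2 (up to 0.069). The difference with genotype in PBS mice was −0.29 ± 0.10 (adjusted p = 0.033), lost without any one of 7 libraries (up to 0.0805). All 8 genes of this role had a genotype difference below 0 in PBS mice, against 49.6% of all tested genes, with a median of −0.31. Of the 8, 3 passed as lower (37.5%, against 12.5% of all genes). The RefSeq promoter of Sparc is shown because Sparc is the gene of this role whose STZ-cKOt and PBS-cKOt libraries did not overlap. It lies at chr11:55420031-55420330 (minus strand), with SMAD elements (CAGAC, either strand) in capitals. The RefSeq start lies within the annotated gene.
Sparc: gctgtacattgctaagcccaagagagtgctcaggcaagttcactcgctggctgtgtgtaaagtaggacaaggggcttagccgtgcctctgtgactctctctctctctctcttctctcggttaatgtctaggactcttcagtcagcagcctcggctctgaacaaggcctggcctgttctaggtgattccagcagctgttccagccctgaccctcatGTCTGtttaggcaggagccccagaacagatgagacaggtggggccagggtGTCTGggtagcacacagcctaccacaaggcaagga
It held 2 SMAD elements, 0 GC boxes and 0 E-boxes.

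Of the other matrix glycoproteins, 3 passed in at least 1 comparison. Fbn1, fibrillin of elastic microfibrils, had 11, 13.5 and 20.4 CPM in STZ-cKOt, 5.93, 7.98 and 12.3 in PBS-cKOt, 8.90, 14.2 and 21.5 in STZ-control, and 6.68, 11.7 and 15.3 in PBS-control and rose with STZ in cKOt mice by 0.66 ± 0.16 (adjusted p = 0.00422). Of 9 STZ-cKOt libraries 7 lay above all PBS-cKOt libraries. Thbs1, thrombospondin, which can activate latent TGF-beta, had 49, 62.6 and 73.5 CPM in STZ-cKOt, 40.2, 52 and 64.2 in PBS-cKOt, 49.1, 64.7 and 74.9 in STZ-control, and 49.4, 64.8 and 82.3 in PBS-control. It was lower with genotype in PBS mice, at −0.33 ± 0.10 (adjusted p = 0.00968). Its STZ difference in cKOt mice, 0.28 ± 0.10 (adjusted p = 0.0495), was lost without any one of 15 of the 18 libraries, without the 4 that stood apart (0.111) and without STZ-control 2 (0.0516). Tgfbi, a TGF-beta-induced adhesion protein, rose with STZ in cKOt mice by 0.46 ± 0.14 (adjusted p = 0.0298) and in control mice by 0.43 ± 0.14 (adjusted p = 0.042). These calls were lost without any one of 6 and of 11 libraries, the second also without STZ-control 2 (adjusted p = 0.0862), and the first also without the 4 that stood apart (0.053).

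Eln, Tnc and Postn passed in no comparison. Eln encodes elastin and had medians of 3.28 CPM in STZ-cKOt, 3.22 in PBS-cKOt, 3.93 in STZ-control and 3.93 in PBS-control. Tnc, tenascin-C, varied widely within groups, from 8.05 to 18.5 CPM in STZ-cKOt and from 4.31 to 14.7 in PBS-cKOt, and differed with STZ in cKOt mice by 0.54 ± 0.22 (adjusted p = 0.111). Postn, periostin, had medians of 3.89, 2.73, 3.36 and 2.53 CPM in STZ-cKOt, PBS-cKOt, STZ-control and PBS-control.

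In the wider list of 23 tested elastic fibre and glycoprotein genes, 7 rose and 0 fell with STZ in cKOt mice and 3 rose and 0 fell in control mice (medians 0.34 and 0.19), against 6% and 6.34% of all genes higher. Spp1, osteopontin, made by injured tubules, rose by 0.71 ± 0.10 (adjusted p = 9.69e-06) in cKOt mice and 0.64 ± 0.10 (adjusted p = 4.93e-05) in control mice. Aspn, asporin, rose in cKOt mice by 0.92 ± 0.17 (adjusted p = 0.000327). With genotype, 1 was higher and 2 were lower in STZ mice (13%, against 19.6% of all genes). In PBS mice 1 was higher and 7 were lower (34.8%, against 23.4%), among them Thbs2 (−0.48 ± 0.14), Ltbp4 (−0.45 ± 0.13) and Ogn (−0.47 ± 0.14). Efemp1 was the one higher, by 0.37 ± 0.09 in STZ mice and 0.33 ± 0.09 in PBS mice.

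Of the small leucine-rich proteoglycans, which coat collagen fibrils, only Bgn (biglycan) changed. It had 141, 167 and 214 CPM in STZ-cKOt, 95.9, 129.9 and 173 in PBS-cKOt, 147, 201 and 254 in STZ-control, and 119, 167 and 201 in PBS-control. Of 9 STZ-cKOt libraries 3 lay above all PBS-cKOt libraries, and 3 of 9 PBS-cKOt libraries lay below all PBS-control libraries. Bgn rose with STZ in cKOt mice by 0.41 ± 0.11 (adjusted p = 0.0128) and was lower with genotype in PBS mice (−0.38 ± 0.11, adjusted p = 0.0101). Dcn (decorin) and Lum (lumican) passed in no comparison. The STZ differences in cKOt mice were 0.26 ± 0.13 (adjusted p = 0.203) for Dcn and 0.46 ± 0.19 (adjusted p = 0.11) for Lum.

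Mmp2, gelatinase A (ENSMUSG00000031740, chromosome 8, 92827291 to 92853420), rose with STZ in both genotypes. It had 4.27, 5.36 and 6.27 CPM in STZ-cKOt, 2.30, 3.02 and 3.73 in PBS-cKOt, 4.49, 5.46 and 7.24 in STZ-control, and 2.52, 3.70 and 4.85 in PBS-control. All STZ-cKOt libraries lay above all PBS-cKOt libraries, and 7 of 9 STZ-control libraries above all PBS-control libraries. The difference was 0.79 ± 0.11 (adjusted p = 6.46e-06) in cKOt mice and 0.62 ± 0.11 (adjusted p = 0.00023) in control mice, with no detected difference between the genotypes' responses (0.17 ± 0.16, adjusted p = 0.613). Mmp14, the membrane protease that activates the Mmp2 product, had 6.72, 8.66 and 10.9 CPM in STZ-cKOt, 4.63, 6.31 and 7.98 in PBS-cKOt, 7.17, 9.79 and 12.1 in STZ-control, and 5.79, 7.97 and 9.21 in PBS-control, and rose with STZ in cKOt mice by 0.44 ± 0.12 (adjusted p = 0.0134). In control mice its STZ difference was 0.27 ± 0.12 (adjusted p = 0.134).

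Timp3 (ENSMUSG00000020044, chromosome 10, 86300372 to 86349506) was the one member that fell with STZ, and it was also lower in cKOt. It had 1423, 1698 and 2050.3 CPM in STZ-cKOt, 1619.6, 2193 and 2749 in PBS-cKOt, 1675, 2258 and 3292 in STZ-control, and 2386, 2887 and 3244 in PBS-control. All STZ-cKOt libraries lay below the median of PBS-cKOt and below that of STZ-control, though the ranges overlapped, and STZ-control 5 reached the highest value of all. For STZ the difference was −0.35 ± 0.10 (adjusted p = 0.0164) in cKOt mice and −0.33 ± 0.10 (adjusted p = 0.0231) in control mice. The second call was lost without PBS-control 1, STZ-control 7 or STZ-control 8 (up to 0.0662) and without the 4 that stood apart (0.105). With genotype it was −0.39 ± 0.10 (adjusted p = 0.00311) in STZ mice and −0.38 ± 0.10 (adjusted p = 0.00412) in PBS mice. Timp3 lies inside Syn3, on its other strand, and Syn3 averaged 5.86 CPM.

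Timp2, an inhibitor that also takes part in Mmp2 activation (ENSMUSG00000017466, chromosome 11, 118301069 to 118355740), had 45.7, 51.5 and 56.2 CPM in STZ-cKOt, 37.5, 41.7 and 51.8 in PBS-cKOt, 51.6, 59.6 and 70.6 in STZ-control, and 40.3, 54.5 and 62 in PBS-control. It was lower with genotype in PBS mice, at −0.31 ± 0.08 (adjusted p = 0.00232) and rose with STZ in cKOt mice by 0.28 ± 0.08 (adjusted p = 0.0129), in the opposite direction to Timp3. In STZ mice its difference with genotype, −0.21 ± 0.08 (adjusted p = 0.0484), was lost without any one of 11 libraries (up to 0.113).

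Of 20 further proteases and inhibitors tested, 1 was higher and 4 lower with genotype in STZ mice, and 1 higher and 4 lower in PBS mice, which is 25% in each, near the 19.6% and 23.4% of all genes. Plau, urokinase, was the one higher: it averaged 595 ± 89 CPM in STZ-cKOt against 427 ± 83.6 in STZ-control (0.48 ± 0.10, adjusted p = 0.000322) and differed by 0.54 ± 0.10 in PBS mice. Its receptor gene Plaur was lower in PBS mice (−0.45 ± 0.13), as was Adamts5, which cuts proteoglycans (−0.59 ± 0.12). With STZ, 4 rose and 2 fell in cKOt mice (30%, against 11.6% of all genes), and 2 rose and 0 fell in control mice (10%, against 12.3%). The brush border protease gene Mep1b fell in cKOt mice by 0.65 (adjusted p = 2.32e-06).

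Each of the 3 lysyl oxidase members, which cross-link collagen and elastin, rose with STZ in 1 genotype. Lox had 2.88, 4.84 and 6.02 CPM in STZ-cKOt, 2.17, 2.79 and 3.98 in PBS-cKOt, 2.52, 3.87 and 7.36 in STZ-control, and 2.52, 3.55 and 4.01 in PBS-control, with 7 of 9 STZ-cKOt libraries above all PBS-cKOt libraries, and a difference of 0.73 ± 0.16 (adjusted p = 0.00139) in cKOt mice. In control mice it was 0.32 ± 0.15 (adjusted p = 0.177). Loxl1, which acts on elastin, was lower with genotype in STZ mice, at −0.44 ± 0.14 (adjusted p = 0.0227), a call lost without STZ-control 4 or 6 (adjusted p up to 0.0558). Its rise with STZ in control mice (0.42 ± 0.14, adjusted p = 0.0447) was lost without any one of 10 libraries, STZ-control 2 among them (0.0668). That of Loxl2 in cKOt mice (0.39 ± 0.13, adjusted p = 0.0472) was lost without any one of 13, without the 4 that stood apart (0.129) and without STZ-control 2 (0.0511). Another member of the family, outside the list, differed far more: Loxl4 averaged 29.3 ± 6.31 CPM in STZ-cKOt against 2.56 ± 0.622 in STZ-control (3.50 ± 0.17, adjusted p = 1.04e-18), and 31.7 ± 7.28 CPM in PBS-cKOt against 1.99 ± 0.716 in PBS-control (3.98 ± 0.18, adjusted p = 4.63e-20). It did not pass with STZ.

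Of 18 tested genes of collagen folding and processing, 2 were higher and 5 lower with genotype in STZ mice (38.9%, against 19.6% of all genes), and 3 higher and 5 lower in PBS mice (44.4%, against 23.4%). Plod2, a lysyl hydroxylase whose products feed cross-links, averaged 67.6 ± 10.4 CPM in STZ-cKOt against 36 ± 5.86 in STZ-control (0.91 ± 0.09, adjusted p = 3.24e-10), and 92.5 ± 10.3 CPM in PBS-cKOt against 35.3 ± 3.86 in PBS-control (1.39 ± 0.09, adjusted p = 3.13e-15). Bmp1, the procollagen C-proteinase, was higher by 0.35 ± 0.08 and 0.46 ± 0.08. Mia3, a collagen export receptor, was lower, at −0.18 ± 0.04 and −0.29 ± 0.04. Serpinh1, the collagen chaperone, was lower, at −0.31 ± 0.07 in STZ mice and −0.24 ± 0.07 in PBS mice.

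Of the TGF-beta ligands, Tgfb2 changed and the other 2 did not pass. Tgfb2 (ENSMUSG00000039239, chromosome 1, 186622792 to 186705989) had 1.75, 2.29 and 2.92 CPM in STZ-cKOt, 1.21, 1.72 and 2.08 in PBS-cKOt, 1.81, 2.35 and 3.13 in STZ-control, and 1.70, 2.43 and 3.11 in PBS-control, low levels that rest on 34 to 58 reads per library in STZ-cKOt. It was lower with genotype in PBS mice, at −0.49 ± 0.12 (adjusted p = 0.00315), which held in every setting tried, and rose with STZ in cKOt mice by 0.39 ± 0.12 (adjusted p = 0.0334), which was lost without any one of 7 libraries (up to 0.0782) and without the 4 that stood apart (0.0864). Tgfb1, the most abundant, differed by −0.24 ± 0.10 (adjusted p = 0.0825) with genotype in STZ mice and 0.11 ± 0.10 (adjusted p = 0.511) with STZ in cKOt mice. Tgfb3 had medians of 1.96 CPM in STZ-cKOt, 1.97 in PBS-cKOt, 2.11 in STZ-control and 1.51 in PBS-control, and overlaps Ttll5 on the other strand, which averaged 11.6 CPM.

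Tgfb2 was the one member of 29 in the promoter table with an E-box (3.45%, against 8.09% of 27025 genes), and its promoter is shown for that reason, chosen after its values were seen. The window lies at chr1:186705940-186706239 (minus strand, GRCm38.p6), and capitals mark the E-box and the SMAD elements spelled out above and a TATA box, searched as TATAAA, all on both strands.
Tgfb2: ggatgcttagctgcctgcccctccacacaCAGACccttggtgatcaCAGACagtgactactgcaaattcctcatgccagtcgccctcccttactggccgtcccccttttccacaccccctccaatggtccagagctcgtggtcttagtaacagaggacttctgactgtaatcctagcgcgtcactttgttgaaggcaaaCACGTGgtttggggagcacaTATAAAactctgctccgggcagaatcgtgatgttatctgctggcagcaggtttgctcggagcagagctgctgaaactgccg
The window held 1 E-box, 1 TATA box and 2 SMAD elements. Across the 29 members, 18 held a GC box (62.1%, against 38.2% of genes), 16 a SMAD element (55.2%, against 53.2%), 5 a TATA box (17.2%, against 15.7%) and 1, Myl9, the CArG box of smooth muscle genes (3.45%, against 1.81%). These are matches of letters in the windows.

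In the wider TGF-beta pathway of 24 tested receptors, activators and SMADs, 3 were higher and 1 lower with genotype in STZ mice, and 2 higher and 6 lower in PBS mice (16.7% and 33.3%, against 19.6% and 23.4% of all genes). Itgb6, the integrin subunit that activates latent TGF-beta at epithelia, averaged 174 ± 16.5 CPM in STZ-cKOt against 94.2 ± 14.2 in STZ-control (0.88 ± 0.08, adjusted p = 5.07e-11), and was higher by 0.82 ± 0.08 (adjusted p = 2.95e-10) in PBS mice. It also rose with STZ, by 0.31 ± 0.08 in cKOt mice and 0.25 ± 0.08 in control mice. Its partner subunit gene Itgav was higher in STZ mice (0.48 ± 0.11). Tgfbr2, the signalling receptor, was lower, at −0.24 ± 0.06 and −0.31 ± 0.06, and Ski, a repressor of SMADs, higher by 0.24 ± 0.06 and 0.29 ± 0.06.

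Genes known as TGF-beta targets, 16 tested, had 1 higher and 0 lower with genotype in STZ mice (6.25%, against 19.6% of all genes). In PBS mice 0 were higher and 4 lower (25%, against 23.4%), among them Ccn2 (−0.46 ± 0.14), Snai2 (−0.45 ± 0.16) and Zeb2 (−0.41 ± 0.12). With STZ, 3 rose and 1 fell in cKOt mice (25%, against 11.6% of all genes), and 2 rose and 1 fell in control mice (18.8%, against 12.3%). Ccn2, connective tissue growth factor, averaged 104 ± 18.5 CPM in STZ-cKOt against 73.6 ± 19.1 in PBS-cKOt (0.50 ± 0.14, adjusted p = 0.0166). Grem1, a BMP antagonist, rose by 3.17 ± 0.49 (adjusted p = 2.1e-05) in cKOt mice and 2.14 ± 0.48 (adjusted p = 0.00254) in control mice, with means of 1.32 ± 0.600 CPM in STZ-cKOt and 0.140 ± 0.119 in PBS-cKOt. Id2 fell by 0.41 (adjusted p = 0.00178) in cKOt mice and by 0.45 (adjusted p = 0.000746) in control mice.

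Acta2, Tagln and Myl9, contractile genes of vessel wall cells and myofibroblasts, rose with STZ in control mice. Of the 10 smooth muscle and pericyte markers outside the members, only Actg2 was called there (10%, against 12.3% of all genes). Of the 6 mural and mesenchymal genes, 4 passed there (66.7%, against 12.3% of all genes), with a median of 0.29. In cKOt mice 2 passed (33.3%, against 11.6%), with a median of 0.26. Acta2, smooth muscle actin (ENSMUSG00000035783, chromosome 19, 34241090 to 34255590), had 25.2, 33 and 39.5 CPM in STZ-cKOt, 24.4, 29.4 and 36.7 in PBS-cKOt, 36.5, 38.8 and 69.8 in STZ-control, and 21, 32.1 and 40.9 in PBS-control. The 9 STZ-control libraries all lay above the PBS-control median, and STZ-control 7 and 8 were the 2 highest. The STZ difference was 0.15 ± 0.12 (adjusted p = 0.47) in cKOt mice and 0.45 ± 0.12 (adjusted p = 0.0105) in control mice, and the genotype difference in STZ mice −0.38 ± 0.12 (adjusted p = 0.0205). Without the 4 libraries that stood apart, which include STZ-control 7 and 8, the last became −0.20 (adjusted p = 0.182) and the STZ difference in control mice 0.28 (adjusted p = 0.0796). Leaving out STZ-control 7 or 8 alone also ended the genotype call (adjusted p up to 0.0793).

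Tagln, transgelin, Myl9, and Vim, the intermediate filament gene vimentin of mesenchymal cells, also rose with STZ in control mice. Their differences there were 0.37 ± 0.11 (adjusted p = 0.0277), 0.28 ± 0.09 (adjusted p = 0.0289) and 0.31 ± 0.09 (adjusted p = 0.0168). All 3 calls were lost without the 4 libraries, at adjusted p = 0.141 for Tagln, 0.146 for Myl9 and 0.0692 for Vim, and those of Tagln and Myl9 were each lost without any one of 5 libraries, for Tagln STZ-control 2 among them (0.058). Vim had 27.2, 34 and 37.7 CPM in STZ-cKOt, 22.1, 25.2 and 32.7 in PBS-cKOt, 31.9, 34.2 and 47.4 in STZ-control, and 25, 31 and 35.5 in PBS-control, and its rise with STZ in cKOt mice (0.33 ± 0.09, adjusted p = 0.0102) held in every setting tried. Tagln overlaps Pcsk7 on the other strand, which averaged 39.8 CPM.

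Pdgfra, the platelet-derived growth factor receptor of fibroblasts (ENSMUSG00000029231, chromosome 5, 75152292 to 75198215), had 29.3, 43.5 and 59.6 CPM in STZ-cKOt, 26.2, 30.4 and 46.3 in PBS-cKOt, 34.8, 47.8 and 61 in STZ-control, and 28.7, 45.5 and 50.4 in PBS-control. It rose with STZ in cKOt mice by 0.46 ± 0.12 (adjusted p = 0.00893) and was lower with genotype in PBS mice, at −0.40 ± 0.12 (adjusted p = 0.0149), a call lost without the 4 libraries (0.0661). Pdgfrb, the receptor of pericytes, was lower with genotype in PBS mice, at −0.27 ± 0.10 (adjusted p = 0.0441), a call lost without any one of 10 libraries (up to 0.103) and without the 4 (0.102). No Pdgfrb difference with STZ passed.

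**Figure D5:**
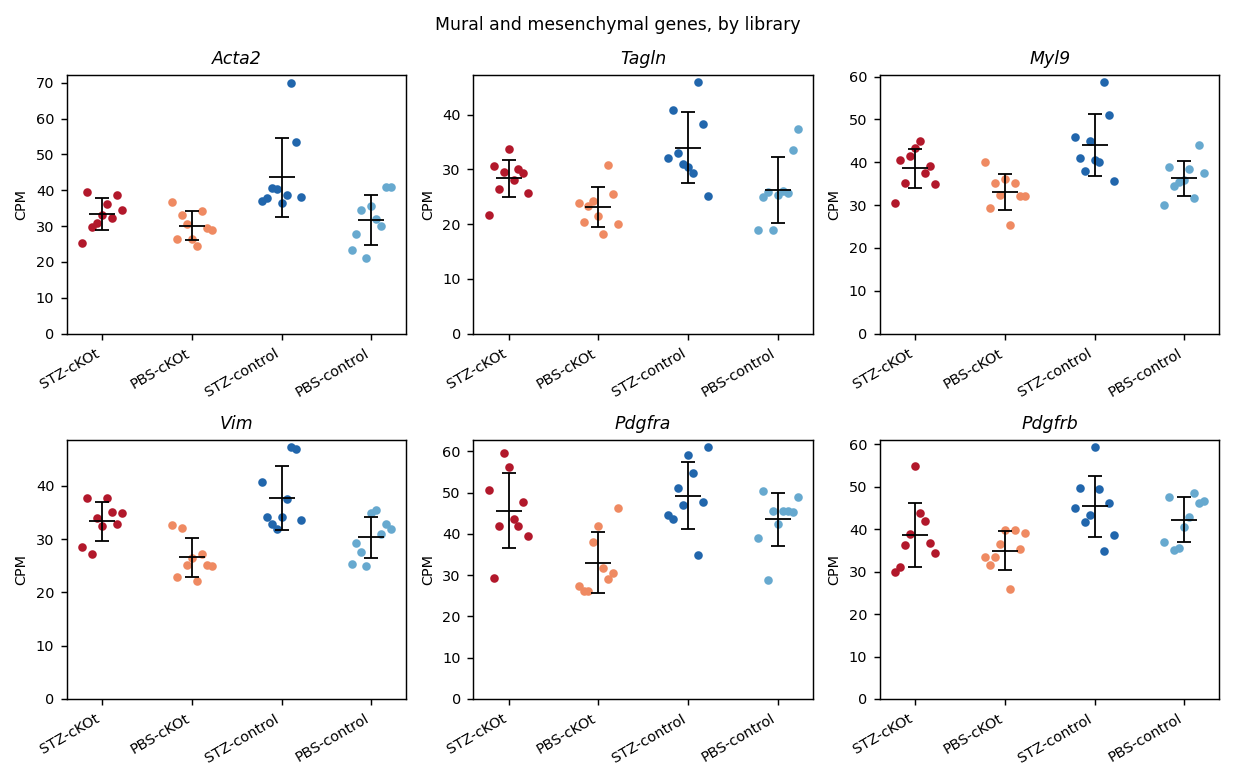
CPM of Acta2, Tagln, Myl9, Vim, Pdgfra and Pdgfrb in each of the 36 libraries (points), with the group mean and SD (bars, n = 9). STZ-control has the highest mean in all 6 panels and PBS-cKOt the lowest, with overlapping ranges.

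Of 15 tested integrin and collagen receptor genes, 2 were higher and 2 lower with genotype in STZ mice (26.7%, against 19.6% of all genes), and 2 higher and 6 lower in PBS mice (53.3%, against 23.4%). Itga6, a laminin-binding integrin subunit of epithelia, averaged 141 ± 21 CPM in STZ-cKOt against 67.8 ± 20.7 in STZ-control (1.06 ± 0.12, adjusted p = 1.83e-08) and was higher by 1.20 ± 0.13 in PBS mice. Sdc4, a syndecan, was higher by 0.37 ± 0.05 and 0.45 ± 0.05. Sdc1 was lower, at −0.34 ± 0.06 in STZ mice and −0.16 ± 0.06 in PBS mice. Cd44, the hyaluronan receptor, was lower in PBS mice, at −0.62 ± 0.14 and rose with STZ in cKOt mice by 0.50 ± 0.14. Itga8, of mesangial cells and pericytes, rose with STZ in cKOt mice by 0.59 ± 0.13 (adjusted p = 0.0028).

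Marker sums are given here for the cells that make or surround matrix. The 7 fibroblast markers summed to 39.7, 49.5 and 57.8 CPM in STZ-cKOt, 25.1, 33.2 and 42.2 in PBS-cKOt, 39, 51.1 and 55.7 in STZ-control, and 28.4, 42.4 and 48.3 in PBS-control. PBS-cKOt had the lowest median here too, and the sums were mostly Cd34 in both cKOt groups and in PBS-control. Of the 7, 2 were lower with genotype in PBS mice (28.6%, against 23.4% of all genes called), Dpt (−0.52 ± 0.17) and Cd34 (−0.30 ± 0.11). The 10 smooth muscle and pericyte markers summed to 317, 363 and 398 CPM in STZ-cKOt, 252, 357 and 367 in PBS-cKOt, 361, 373 and 433 in STZ-control, and 327, 363 and 404 in PBS-control. With genotype in PBS mice 2 were lower, Rgs5 and Mcam (20%, against 23.4% of all genes called). Endothelial markers, 9 in all, were below 0 for all 9 genes with genotype in PBS mice. Of these 1 was called, Cdh5 (−0.36 ± 0.12), which is 11.1%, against 23.4% of all genes. Their sum had medians of 510.3 CPM in STZ-cKOt, 427 in PBS-cKOt, 511 in STZ-control and 522 in PBS-control. The part of these cell type markers in the members' differences was not tested.

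Of 9 macrophage markers, 6 were lower with genotype in STZ mice, against 10.1% of all genes, and 3 in PBS mice, against 12.5%. Their sums were 94.2, 99.7 and 117 CPM in STZ-cKOt, 98.7, 106 and 118 in PBS-cKOt, 114, 134 and 175 in STZ-control, and 108, 122 and 133 in PBS-control. Podocyte markers, 8 in all, had 1 lower and 0 higher with genotype in STZ mice (12.5%, against 19.6% of all genes called). In PBS mice 2 were lower and 0 higher (25%, against 23.4%). With STZ in cKOt mice 1 rose (12.5%, against 11.6%), and 0 of 8 differences lay below 0, with a median of 0.33. The podocyte sums had medians of 463 CPM in STZ-cKOt, 409 in PBS-cKOt, 446 in STZ-control and 435 in PBS-control. PBS-cKOt 6 (248 CPM) and PBS-control 3 (320.2 CPM) had the lowest sums of their groups. The same 2 libraries had the lowest sums of fibroblast and endothelial markers in their groups. In the STZ groups, STZ-cKOt 2 and STZ-control 7 were likewise lowest for podocyte (382 and 336 CPM), fibroblast (39.7 and 39.0) and endothelial markers (349 and 372). Serpine2, on the mesangial list, rose with STZ by 0.84 ± 0.09 in cKOt mice and 0.79 ± 0.09 in control mice. The 8 proximal tubule markers summed to 7568, 8845 and 10584 CPM in STZ-cKOt, 8244, 10630.1 and 11866 in PBS-cKOt, 8177, 8887 and 11134 in STZ-control, and 10523, 11405 and 12424 in PBS-control. With STZ 3 of them were lower in cKOt mice (37.5%, against 11.6% of all genes called) and 2 in control mice (25%, against 12.3%), where all 8 differences lay below 0. With genotype 3 were lower in STZ mice and 3 in PBS mice (37.5% in each, against 19.6% and 23.4%). Of 5 tested injured tubule markers, 3 rose with STZ in each genotype, among them Lcn2 (0.77 ± 0.25 and 1.60 ± 0.26). That is 60% in each, against 11.6% of all genes in cKOt mice and 12.3% in control mice. Fat cell markers fell with STZ in control mice (5 of 7, or 71.4%, against 12.3% of all genes), where PBS-control 8 had the highest sum, 333 CPM. No urothelial marker changed with genotype, and 1 of 8 rose with STZ in control mice (12.5%, against 12.3% of all genes). The part of these markers in the members' differences was not tested.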

How the data were processed

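Per the labels' protocols, sequencing libraries came from 500 ng total RNA and a TruSeq Stranded mRNA kit. The authors deposited raw counts, whole numbers of reads per gene, 1 file per library. Tools listed in the submitters' processing notes are HTSeq 0.9.1, STAR 2.5.3a and cutadapt 1.8, with the build GRCm38. Strand and counting options: not given in the sources used here. Groups and replicate numbers came from the titles. No label states that each number is a separate mouse, so p-values measure the spread between these samples. Over 144 pairs of replicates the chi-square per gene of their counts was at least 5.75, so no pair agreed within sampling noise.

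Tests used the quasi-likelihood method of edgeR 4.0.16 (R 4.3.3). The filterByExpr function left 15637 genes and TMM scaled the libraries. A single model with a mean for each group covered the 36 libraries and left 32 residual degrees of freedom. Adjusted p follows Benjamini-Hochberg over every tested gene of a comparison, with a threshold of 0.05. SE is derived from the F statistic. CPM uses the TMM library sizes, and RPKM divides it by exon length from GENCODE M21, which also gave symbols and coordinates. The edgeR test was checked on simulated counts. The members, lists and tests were chosen with earlier results of these data known. Every member past the threshold in any comparison is named, and of other lists up to 4 genes with the smallest adjusted p; some genes of those lists are not reported here. Itga8, Ltbp4 and Mfap5 stand on 2 lists each. Depth was 16.9 to 22.3 M assigned reads per library.

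Alternatives were DESeq2 size factors, the Wald test of DESeq2 1.42.0, limma 3.58.1 voom with quality weights, no filter, a mean of at least 1 CPM, only the groups compared, the replicate number as a block, leaving out STZ-control 2, and leaving out STZ-control 7 and 8 with PBS-cKOt 1 and 3. Leaving out each library in turn was added after seeing the data.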

Additional observations from a re-analysis of the deposited data

Results flagged for a closer look

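In 7 of 132 group values of the called members, 1 library lay farther from its group than Dixon's criterion for 9 samples allows (0.493 of the range), where chance alone would give about 6.6. STZ-control 5 was highest for Fn1 (66.0 CPM) and Col5a1 (15.5 CPM). PBS-cKOt 1 was lowest for Col4a3 (297 CPM) and Col4a4 (248 CPM) within the PBS-control range, and it is one of the 4 libraries that stood apart. Nid1 was low in PBS-control 3 (29.9 CPM), Thbs1 low in STZ-cKOt 6 (49.0 CPM) and Lox high in PBS-cKOt 6 (3.98 CPM). With each library left out in turn, the genotype difference in PBS mice ran from 0.75 to 0.85 for Col4a3 and from 0.53 to 0.61 for Col4a4.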

How the results depend on the processing

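Of 60 calls of members, 0 reversed under any alternative, 32 held in all 9 and 31 of these, in 20 members, also held without any single library. The other 28 were lost under at least 1 alternative. Counts of called members that moved by over 1.5 times were 29 against 19 for genotype in PBS mice by limma voom, and, for STZ in control mice, 7 without a filter, 6 with only the groups compared and 6 without STZ-control 2, against 11. For the interaction over all genes, DESeq2 called 19 and limma voom 15, against 7. The cause was not tested. Leaving out each library in turn gave 5 to 11 members for genotype in STZ mice, 13 to 23 for genotype in PBS mice, 15 to 23 for STZ in cKOt mice, 4 to 13 for STZ in control mice and 0 for the interaction. In the same leave-outs, all genes called ran from 2725 to 3376, 3225 to 3879, 1468 to 1947, 1369 to 2053 and 3 to 19. The split for genotype in STZ mice was 4 higher and 7 lower by limma voom, 4 and 6 with the replicate block and 3 and 5 without the 4 libraries, against 4 and 4.

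The replicate numbers were not shown to pair the libraries. Over 54 pairs of the same number the correlation of deviations ran from −0.25 to 0.40. Its median was 0.02, against 0.005 for pairs of other numbers. Of the 54 pairs 14 were over 0.1, and 7 of 36 libraries correlated best with their own number. With the replicate block, 10 and 21 members were called for genotype in STZ and PBS mice, 22 and 13 for STZ in cKOt and control mice, and 0 for the interaction. No scaling moved the median of all genes by over 0.1. Members under about 3 CPM, such as Tgfb2 and Tgfb3, are the most limited by depth.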
